A study of Rattus norvegicus with 6 samples.

Results

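The enzymes examined here were the cytochromes P450 and the transferases that conjugate drugs and lipids with glutathione, glucuronic acid or sulfate. Members were all gene symbols of the rat expression table that begin with Cyp and a digit, with Gst and a class letter (a, m, p, t, o, k or z) and a digit, or with Mgst, Ugt or Sult and a digit. The rule used only the names, and it found 130 of 17030 symbols, on 136 of 17557 rows. For the 6 symbols present on more than 1 row, the row with the highest mean was taken. By class these were 74 P450 genes, 21 cytosolic and kappa glutathione transferases, 3 microsomal glutathione transferases of the Mgst family, 18 UDP-glucuronosyltransferases and 14 sulfotransferases.

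Messenger RNA was sequenced from 6 Lobund-Wistar rats, 1 library per rat, in tissue that the study describes as primary subcutaneous tumors. The aim was to ask how digitoxin alters gene expression in a tumor that grows from PAIII cells, a rat prostate adenocarcinoma line that does not depend on androgen. All rats were 2 months old when PAIII cells were injected into the right flank. Rats A1, A6 and A12 (digitoxin, replicates 1, 2 and 3) received 0.03 mg/kg digitoxin, a cardiac glycoside that inhibits the sodium pump, by daily intraperitoneal injection from day 10, rats B5, B9 and B14 (vehicle, replicates 1, 2 and 3) received vehicle, and tumors were taken at day 40. The study picked the digitoxin rats for low and the vehicle rats for high serum cytokines, so treatment and that selection cannot be told apart here, and it punched RNA from tumor-rich regions of frozen sections. All levels are FPKM, a read density corrected by the authors for transcript length and library size. The table gives no counts and the depth is unknown. A value of 0 means only that a gene was listed at 0, because Col1a2, a collagen gene, was listed at 0 in all 6 tumors beside Col1a1 at up to 1665 FPKM.

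P450 enzymes are heme proteins of the endoplasmic reticulum or mitochondria that insert an oxygen atom into drugs, fatty acids, sterols, retinoids and vitamin D. Glutathione transferases, glucuronosyltransferases and sulfotransferases then join a polar group to such products, which makes them easier to export. The liver holds most of these enzymes, and in the lung the club cells of the small airways are known for a high content of P450s of the Cyp2 and Cyp4b families.

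The libraries did not separate by label. Summed levels of 8 markers of alveolar epithelium were 50274 FPKM in A1, 82627 in A6, 27099 in B5 and 35384 in B9, against 17.5 in A12 and 25.2 in B14. Scgb1a1, the secretory protein of club cells, was at 54124, 129228, 20630 and 22674 FPKM in A1, A6, B5 and B9 and at 2.31 and 1.51 in A12 and B14. Ciliated cell markers summed to 194 to 1032 FPKM in those 4 libraries and to 8.26 and 6.70 in A12 and B14. These are markers of lung cells, while the study describes primary tumors of the flank and also kept some lung metastases. The source of this RNA was not tested. A12 and B14 also held the lowest values of all 3 erythroid, all 4 macrophage and 5 of 6 endothelial markers tested and the highest values of 3 of 4 fibroblast and 4 of 5 division markers tested, while A6 had the lowest division sum (21.7 FPKM, against 178 to 349). Of 5 adipocyte markers, Fabp4, which other cells also make, ran from 315 FPKM in A6 to 2036 in A12, while Adipoq was at most 2.63 FPKM and Lep was listed at 0 throughout. Steroidogenic markers summed to 0.785 to 4.51 FPKM. Of 7 liver markers Serpina1 reached 12.1 FPKM and Alb, albumin, at most 0.0353, so defining liver markers were at or near 0. Of the labelled origin, the prostate genes Hoxb13 and Pbsn were at most 0.0937 FPKM and listed at 0 in every library, respectively. In tissue RNA, fewer cells of a type and less RNA per cell cannot be told apart. No gene used here was a measure of exposure to the drug. An earlier comparison with gene tables of the study left a doubt whether the labels of A1 and B9 are exchanged. An exchange was not tested here and would alter every group difference. The study uses A for digitoxin rats and B for vehicle rats, picked by the serum selection described above. Every direction below holds for the libraries as labelled.

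Of the 130 enzyme mRNAs, 9 averaged 100 FPKM or more across the tumors, 20 lay between 10 and 100, 22 between 1 and 10 and 41 above 0 but below 1, and 38 were listed at 0 in every tumor. The 51 that averaged 1 FPKM or more were tested, and 75 members were listed at 0 in at least 1 tumor. The 9 were Gstp1, Mgst2, Mgst1, Cyp2b1, Sult1a1, Cyp4b1, Gstk1, Gsto1 and Ugt1a1. The first 3 of these by mean, Gstp1, the pi class transferase, and Mgst2 and Mgst1, microsomal transferases, held between 29.9% (A6) and 53.8% (A12) of the summed enzyme signal of a library. The whole set made up 0.373% to 0.466% of summed FPKM in each library.

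**Figure D1:**
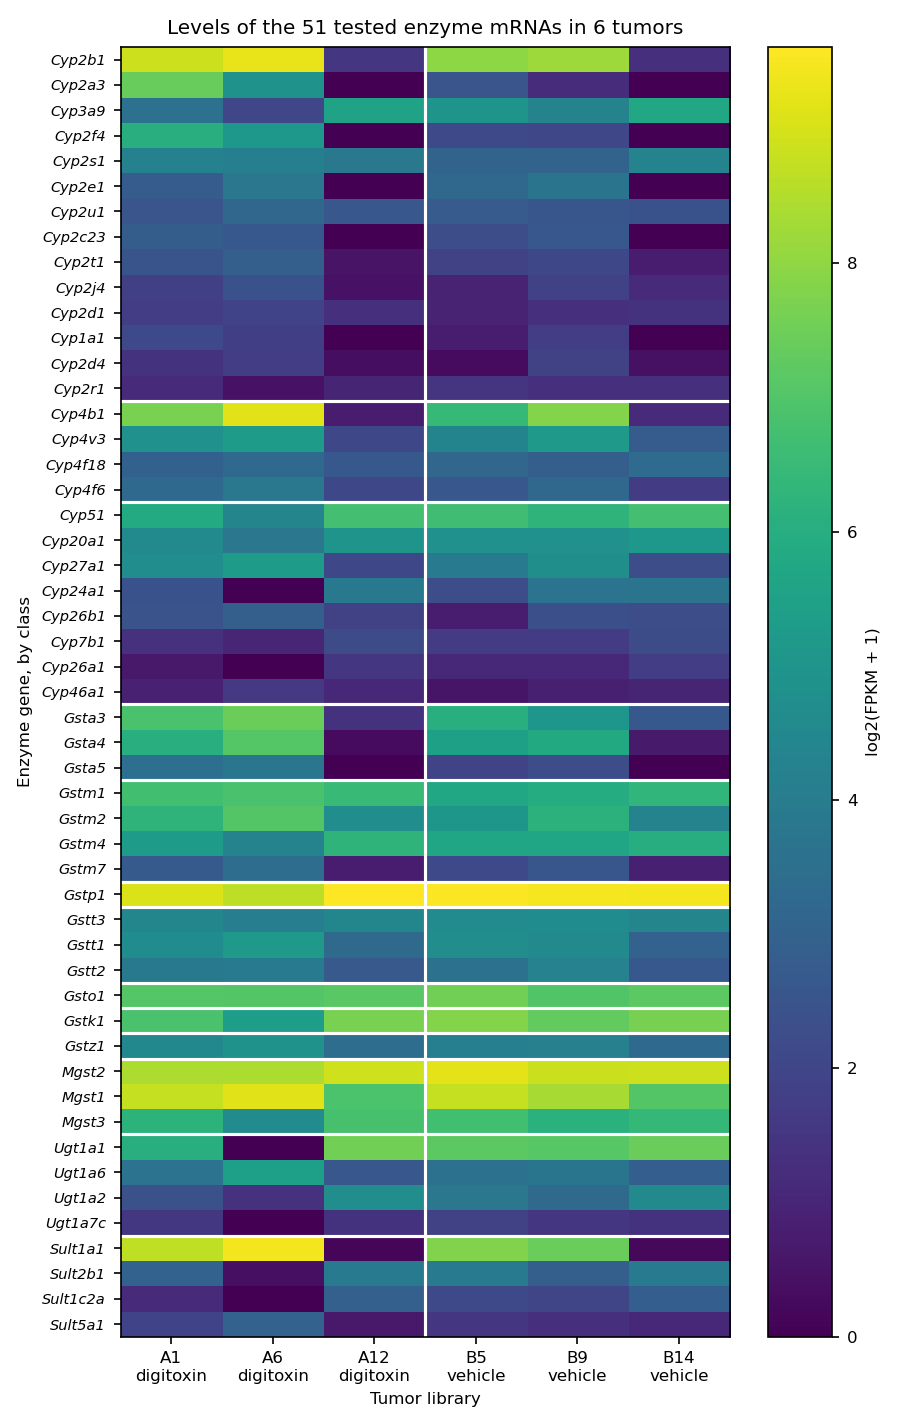
Levels of the 51 tested enzyme mRNAs (vertical axis, grouped by class and separated by white lines) in the 6 tumor libraries (horizontal axis), colored by log2(FPKM + 1). The columns of A12 and B14 look alike and are dark for many Cyp2, Cyp4 and Gst alpha rows that are bright in A1 and A6, while Gstp1, Mgst2 and Gsto1 are bright in all 6 columns.

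The summed signal of all members was 3778, 4442 and 2577 FPKM in A1, A6 and A12 and 3645, 3344 and 2432 FPKM in B5, B9 and B14. The families differed in how they varied. P450 mRNAs summed to 1141, 1485 and 248 FPKM in A1, A6 and A12 and to 601, 795 and 272 in B5, B9 and B14, lowest in A12 and B14. Sulfotransferases were lowest in the same libraries, with 420.3, 698 and 21.8 FPKM in A1, A6 and A12 and 242, 181 and 23.6 in B5, B9 and B14. Glutathione transferases (Gst) summed to 1248 to 1489 FPKM, and glucuronosyltransferases ran the other way from the P450s, from 44.9 FPKM in A6 to 223 in A12.

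**Figure D2:**
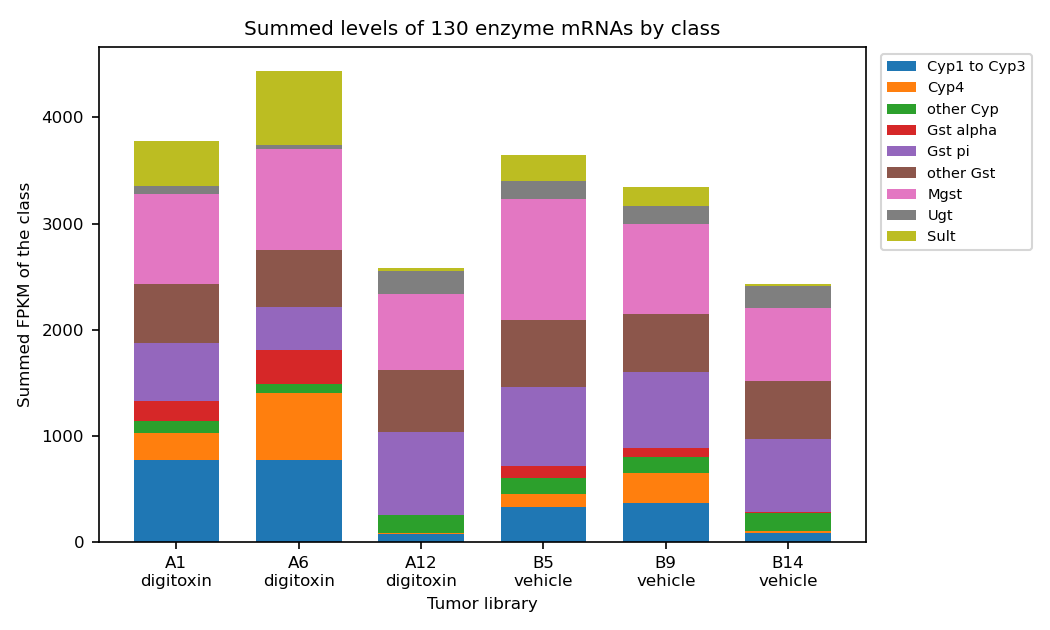
Summed FPKM of the 130 enzyme mRNAs (vertical axis, from 0) in each tumor library (horizontal axis), stacked by enzyme class. The sulfotransferase segment nearly vanishes in A12 and B14 (21.8 and 23.6 FPKM), the P450s together are lowest there (248 and 272 FPKM), and the segments of the pi class and of the microsomal transferases are present in all 6 bars.

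A12, labelled digitoxin, and B14, labelled vehicle, were the closest pair of the 15 possible pairs of libraries. The median absolute difference over the 51 tested members was 0.17 on the log2 scale between them (0.18 over all tested rows), against 2.29 for A6 and A12, the most distant pair (1.09 over all tested rows). A12 and B14 held the 2 lowest values for 23 of 51 members (45.1%), where 29.3% of all tested rows did so, and the 2 highest values for 10 members (19.6%), against 30.1% of all tested rows. The lowest-value members included 7 of 14 Cyp1 to Cyp3 genes, 3 of 4 Cyp4 genes, all 3 tested Gst alpha genes and 2 of 4 sulfotransferases. The highest-value members included 5 of 8 tested P450s outside families Cyp1 to Cyp4. For these members the alveolar, club and ciliated marker sums given above were low in the same libraries, and their part in the result was not tested.

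The drug-oxidizing P450s of families Cyp1 to Cyp3 comprised 40 members, of which 14 were tested and 10 were listed at 0 throughout. Cyp2b1, a phenobarbital-inducible enzyme in liver that lung also makes, had the highest mean of the P450s. In A12 and B14, however, many other P450s were above it, among them Cyp51, Cyp3a9 and Cyp20a1. Cyp2b1 was at 475, 633 and 1.91 FPKM in A1, A6 and A12 and at 254, 295 and 1.47 FPKM in B5, B9 and B14. The labelled groups overlapped, and A12 and B14, 1 from each group, were far below the other 4 tumors. Cyp2a3, a lung and nasal enzyme that oxidizes coumarin and nicotine, was at 166 and 28.6 FPKM in A1 and A6, at 4.85 and 1.32 in B5 and B9, and listed at 0 in A12 and B14. Cyp2f4, the rat counterpart of the airway enzyme that activates naphthalene, had 65.3 and 33.9 FPKM in A1 and A6, 3.41 and 3.12 in B5 and B9, and 0 in A12 and B14. For both genes A1 and A6 were the 2 highest libraries.

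The deposited positions place Cyp2a3 (chromosome 1, 84869279 to 84876600) and Cyp2f4 (chromosome 1, 85146273 to 85158525) near each other, and Cyp2b1 on chromosome 7 (99752107 to 99775780), away from Cyp2b2 on chromosome 1. The build of these positions is not known. RefSeq (GRCr8) places all 3 on chromosome 1. The 250 bases before each start are printed because these 3 Cyp2 mRNAs were all at or near 0 in A12 and B14, while A1 was the highest library for Cyp2a3 and Cyp2f4 and A6 for Cyp2b1. Capitals mark TTGCNNAA, a core of C/EBP sites, and TATAAA, the TATA box, and Cyp2f4 held neither. The intervals are chr1:91299334-91299583 for Cyp2a3, chr1:91543518-91543767 for Cyp2f4 and chr1:90645869-90646118 for Cyp2b1, all on the plus strand.
Cyp2a3: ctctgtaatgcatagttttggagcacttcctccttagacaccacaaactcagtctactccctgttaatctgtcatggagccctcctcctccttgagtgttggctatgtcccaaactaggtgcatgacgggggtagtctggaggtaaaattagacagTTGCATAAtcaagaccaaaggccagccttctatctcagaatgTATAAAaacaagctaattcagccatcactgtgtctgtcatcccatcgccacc
Cyp2f4: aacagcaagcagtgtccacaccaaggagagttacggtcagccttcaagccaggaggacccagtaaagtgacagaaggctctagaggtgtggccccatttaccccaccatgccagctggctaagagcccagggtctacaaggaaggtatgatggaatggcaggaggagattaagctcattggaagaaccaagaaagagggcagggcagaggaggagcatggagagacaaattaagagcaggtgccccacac
Cyp2b1: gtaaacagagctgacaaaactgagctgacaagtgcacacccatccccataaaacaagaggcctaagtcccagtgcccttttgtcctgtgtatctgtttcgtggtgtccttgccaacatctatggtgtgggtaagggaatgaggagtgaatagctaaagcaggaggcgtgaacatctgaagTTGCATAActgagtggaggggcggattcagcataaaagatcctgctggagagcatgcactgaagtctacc

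In Cyp2a3 the C/EBP core ended 87 bases before the start and the TATA box 47 bases before it, and in Cyp2b1 the core ended 63 bases before the start. Among promoters of this length, TTGCNNAA on either strand occurred in 9.22% of 33469 rat promoters and in 25.5% of the 106 members matched by symbol, and TATAAA in 12.9% and 26.4%. A member counted when any of its promoters matched, so the share of promoters and the share of members are unlike measures. These letters are matches, not sites shown to be bound, and promoters of related P450s resemble each other, so members are not independent. Of the 44 tested members with a promoter, 8 held TTGCNNAA and 6 held TATAAA.

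Against Scgb1a1, the Cyp2 genes did not keep a fixed proportion. Per 1000 FPKM of Scgb1a1, Cyp2a3 was at 3.06 and 0.221 FPKM in A1 and A6 and at 0.235 and 0.0581 in B5 and B9. Cyp2f4 was at 1.21, 0.263, 0.165 and 0.138 FPKM on the same scale, so A1 stood highest for both. Cyp2b1 ran from 4.90 FPKM in A6 to 13.01 in B9, and so had no such excess in A1. With the mRNA of the labelled club cell gene at 2.31 FPKM or less in A12 and B14, no ratio was formed there. The excess in A1 is relative to Scgb1a1, which was highest in A6, as was Scgb3a2 (1098 FPKM in A1, 1543 in A6). Of the same marker list, Scgb3a1 (145 FPKM in A1, 14.2 in A6), Bpifa1 (10.9 and 0) and Bpifb1 (32.0 and 14.3) were highest in A1. Ratios to these genes were not formed.

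Of the other drug-oxidizing P450s, Cyp3a9, a member of the testosterone-oxidizing Cyp3a group, went the other way from the Cyp2 genes, at 11.3, 3.08 and 45.8 FPKM in A1, A6 and A12 and 30.7, 18.9 and 52.5 in B5, B9 and B14, with A12 and B14 highest. Chosen after their values were seen, Cyp2s1, an epithelial P450, ranged from 7.24 to 18.8 FPKM, and Cyp2e1, the ethanol-oxidizing enzyme, reached 13.1 FPKM in A6 and was listed at 0 in A12 and B14. Cyp1a1, the classic target of the aryl hydrocarbon receptor, was at 3.36 and 2.45 FPKM in A1 and A6 and at 0.691 and 2.35 in B5 and B9, and was listed at 0 in A12 and B14. The liver enzymes Cyp2c11, Cyp3a2 and Cyp1a2 never exceeded 0.106 FPKM. Many of these P450s have close paralogs, and how reads were shared between paralogs is uncertain.

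The Cyp4 family hydroxylates fatty acids, and 4 of its 15 members were tested. Cyp4b1 (chromosome 5, 138299550 to 138316860), a lung-enriched enzyme, was at 204, 576 and 0.706 FPKM in A1, A6 and A12 and at 86.5, 227 and 1.19 in B5, B9 and B14. This was again a gap between A12 with B14 and the other 4 tumors. Cyp4v3, which acts on medium-chain fatty acids, had 28.0, 38.4 and 3.27 FPKM in A1, A6 and A12 and 18.9, 34.4 and 5.96 in B5, B9 and B14. Cyp4f6, chosen after its values were seen, ranged from 2.20 to 13.4 FPKM with the same 2 libraries lowest, and the 11 untested members stayed below 1 FPKM on average.

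The other P450s act mainly on sterols, retinoids and vitamin D, and of the 8 tested, 5 were highest and 1 was lowest in A12 and B14. Cyp51, the lanosterol demethylase of cholesterol synthesis, was at 57.3, 19.7 and 105 FPKM in A1, A6 and A12 and at 100.4, 75.5 and 106 in B5, B9 and B14. Cyp20a1, an orphan P450, was at 22.6, 12.9 and 30.2 FPKM and at 28.2, 28.0 and 34.1. In both, A12 and B14 were highest and A6 lowest, and the labelled groups overlapped. Cyp26b1, which degrades retinoic acid, was at 4.53, 6.58 and 2.68 FPKM in the digitoxin tumors and at 0.642, 4.14 and 3.80 in the vehicle tumors. Cyp27a1, which hydroxylates the cholesterol side chain and was chosen after its values were seen, ranged from 3.23 FPKM in A12 to 39.1 in A6, with A12 and B14 lowest. Of the steroidogenic P450s, Cyp11a1, Cyp17a1, Cyp11b1 and Cyp11b2 never exceeded 0.273 FPKM, Cyp21a1 reached 0.626 in B5, and Cyp19a1, the aromatase, reached 0.957 in A12 and 1.25 in B14. The bile acid enzymes Cyp7a1 and Cyp8b1 were listed at 0 in all tumors.

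**Figure D3:**
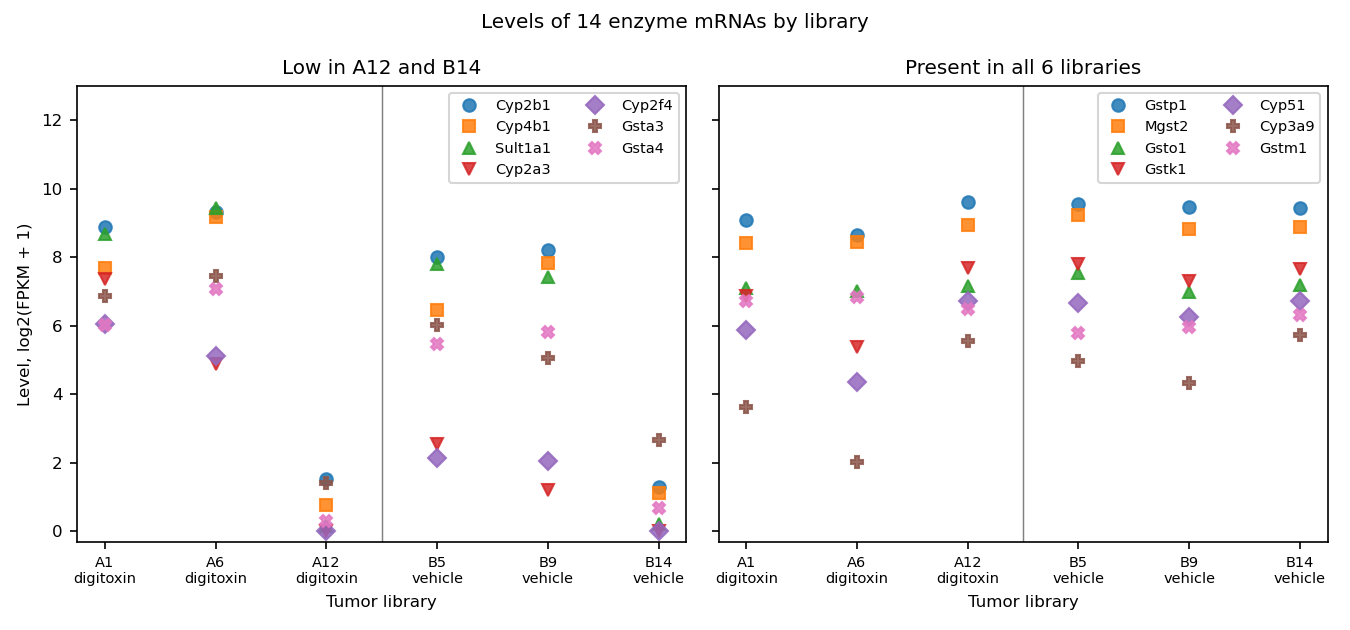
Levels of 14 enzyme mRNAs on the log2(FPKM + 1) scale (vertical axis) in the 6 libraries (horizontal axis), as 1 point per gene and library. The left panel holds genes that fall below 8 FPKM in A12 and B14, the right panel genes present in every library, of which Cyp3a9 and Cyp51 are highest in A12 and B14.

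Cytosolic glutathione transferases fall into classes that differ in substrate and tissue. Gstp1, the pi class enzyme, had the highest mean of all members although Sult1a1, Cyp2b1, Mgst1 and Cyp4b1 were above it in A6, with 542, 405 and 782 FPKM in A1, A6 and A12 and 752, 709.6 and 695 in B5, B9 and B14. The labelled means were 576 ± 191 FPKM (SD, n = 3) with digitoxin and 719 ± 29.7 (SD, n = 3) with vehicle, and the vehicle tumors lay inside the range of the digitoxin tumors. RefSeq gives its start on the minus strand of chromosome 1, and the 250 bases before it (chr1:210769706-210769955, GRCr8) are printed to show the overlap of an AP-1 core, TGANTCA, with an antioxidant response element core, TGACNNNGC, here in capitals.
Gstp1: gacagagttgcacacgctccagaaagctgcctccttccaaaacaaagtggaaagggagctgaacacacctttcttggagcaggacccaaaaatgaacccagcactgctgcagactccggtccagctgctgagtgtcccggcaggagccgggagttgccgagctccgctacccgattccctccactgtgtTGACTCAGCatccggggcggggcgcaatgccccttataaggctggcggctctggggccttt

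The joint match spanned bases 61 to 53 before the start. TGACNNNGC occurred in 10.1% of all promoters and in 10.4% of the 106 members matched by symbol, and TGANTCA in 6.34% and 7.55%. The xenobiotic response element core, TNGCGTG, occurred in 4.09% of all promoters and in 3.77% of these members. As above, a member counted when any of its promoters matched.

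The mu class included the member with the smallest unadjusted p. Gstm1 (chromosome 2, 230272739 to 230278117), which conjugates epoxides and quinones, was at 104, 114 and 89.1 FPKM in A1, A6 and A12 and at 53.8, 61.5 and 78.3 in B5, B9 and B14. Each digitoxin tumor was above each vehicle tumor, with means of 103 ± 12.7 and 64.5 ± 12.5 FPKM (SD, n = 3 each). On the log2(FPKM + 1) scale, which understates changes of low genes, the difference was 0.67 with a standard error of 0.23, and limma's unadjusted p was 0.0238, with a Benjamini-Hochberg adjusted p of 0.926 over all tested rows. With 1 tumor left out the difference lay between 0.55 (without B5) and 0.82 (without B14), and unadjusted p was under 0.05 in 2 of those 6 fits.

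Its neighbors did not share this order. Gstm2 was at 75.5, 130.3 and 25.2 FPKM in A1, A6 and A12 and 32.8, 71.1 and 18.9 in B5, B9 and B14, lowest in A12 and B14. Gstm4 was at 37.3, 18.5 and 76.1 FPKM and at 50.2, 49.4 and 61.9, highest in A12 and B14. These genes lie side by side on chromosome 2 and resemble each other in sequence, so reads may have been split between them, and their values are uncertain to that extent. The alpha class, which also reduces lipid peroxides, was lowest in A12 and B14. Gsta3 was at 115, 175 and 1.65 FPKM in A1, A6 and A12 and 63.5, 32.4 and 5.32 in B5, B9 and B14, and Gsta4, which detoxifies hydroxynonenal, was at 64.1, 133 and 0.224 and 43.2, 55.7 and 0.600.

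The remaining classes ranged from steady to widely varying members. Gsto1, an omega class enzyme that reduces arsenic compounds and dehydroascorbate, was the steadiest abundant member, with 136 ± 6.68 FPKM in digitoxin and 153 ± 30.5 in vehicle tumors (SD, n = 3 each) and a 1.47-fold range over the 6 libraries. Gstt3 had a 1.51-fold range and means of 19.0 and 22.8 FPKM, and its theta class relatives Gstt1 and Gstt2, chosen after their values were seen, were lowest in A12 and B14 at 8.89 and 7.13 and at 5.50 and 5.21 FPKM. Gstz1, the zeta class enzyme of tyrosine breakdown, ranged from 8.69 FPKM in B14 to 29.3 in A6. Gstk1, a kappa class enzyme of mitochondria and peroxisomes, was at 115, 40.9 and 204 FPKM in A1, A6 and A12 and at 224, 157 and 199.9 in B5, B9 and B14, so that A1 and A6 were the 2 lowest libraries.

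Microsomal glutathione transferases are integral membrane proteins, and Mgst2 can also make leukotriene C4. All 3 were tested. Mgst2 was at 343, 346 and 488 FPKM in A1, A6 and A12 and at 597, 455 and 471 in B5, B9 and B14, a mean of 392 ± 83.1 against 508 ± 77.7 (SD, n = 3 each) with overlap through A12. Mgst1, a detoxifying enzyme also of the outer mitochondrial membrane, was at 434, 579 and 118 FPKM and 438, 326 and 132, lowest in A12 and B14. Mgst3, a peroxidase of the same family, was at 72.3, 23.8 and 112 FPKM and 103, 68.8 and 83.1, lowest in A6.

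Glucuronosyltransferases of the Ugt1a locus share their last exons, and only the first exon differs. All 8 Ugt1a rows end at the same deposited position, 94990037 on chromosome 9, so the division of reads between them is uncertain. Ugt1a1, the bilirubin enzyme, was at 64.6, 3.49e-09 and 191 FPKM in A1, A6 and A12 and at 147, 139 and 171 in B5, B9 and B14. Ugt1a6, which conjugates simple phenols and was chosen after its values were seen, was at 11.6, 41.8 and 5.12 FPKM and at 10.9, 12.2 and 6.35. A6 thus stood apart in both, with the lowest Ugt1a1 and the highest Ugt1a6. Summed over the 8 rows, the level was 44.2 FPKM in A6, 82.4 in A1 and 162 to 223 in the others. Of the 10 other Ugt members, 9 members of the Ugt2 group were listed at 0 throughout and Ugt8, which makes galactocerebroside, stayed below 1 FPKM.

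**Figure D4:**
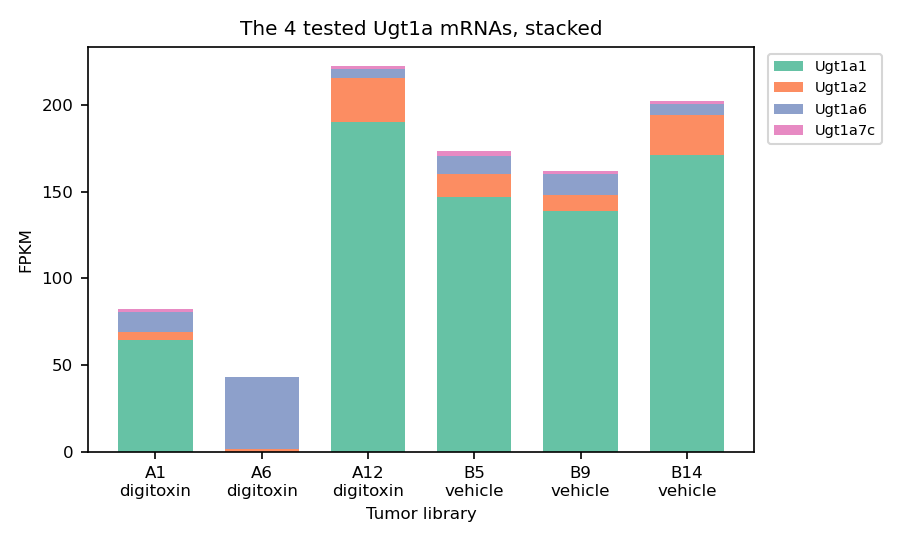
FPKM of the 4 tested Ugt1a mRNAs (vertical axis, from 0) stacked for each tumor library (horizontal axis). Ugt1a1 fills most of each bar except that of A6, where it is near 0 and Ugt1a6 (41.8 FPKM) fills the bar.

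Of 14 sulfotransferases, which transfer sulfate from PAPS, 4 were tested and 7 were listed at 0 throughout. Sult1a1 (chromosome 1, 205079584 to 205083105), the phenol sulfotransferase, was at 408, 690.4 and 0.114 FPKM in A1, A6 and A12 and at 222, 169 and 0.152 in B5, B9 and B14. It was thus above 100 FPKM in 4 tumors and close to 0 in A12 and B14. Chosen after their values were seen, Sult2b1, which sulfates cholesterol, ranged from 0.322 FPKM in A6 to 14.8 in B14, and Sult1c2a was listed at 0 in A6 and reached 6.67 in A12.

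Between the labelled groups, no enzyme mRNA passed the test. With limma on log2(FPKM + 1) for 10740 rows, 0 members and 0% of all rows passed an adjusted p (Benjamini-Hochberg) of 0.05, the lowest being 0.926. Unadjusted p was under 0.05 for 1 of 51 members, Gstm1 (1.96%), and for 36 of all rows (0.335%), or 47 rows when no variance trend was fitted. The digitoxin and vehicle values did not overlap for 2 members (3.92%), Gstm1 and Cyp2r1, against 4.16% of all rows. Cyp2r1, a vitamin D hydroxylase named after its values were seen, was at 1.25, 0.396 and 0.979 FPKM with digitoxin and 1.72, 1.45 and 1.46 with vehicle, with a log2 difference of -0.47 and an unadjusted p of 0.212. With median-of-ratios scaling 1 member did not overlap and it was higher with digitoxin, so Cyp2r1 then overlapped. The median log2 difference, digitoxin minus vehicle, was 0.22 over the 51 members and -0.16 over all tested rows, with 29 members higher and 22 lower by their group means while 64.9% of all rows were lower. With median-of-ratios scaling the 2 medians were 0.41 and 0.02, so the difference between them was 0.39 rather than 0.38. With no filter on low values the medians were 0.02 and -0.07, a difference of 0.09, and with a minimum mean of 5 FPKM 0.02 and -0.16, a difference of 0.18. That difference was 0.06 without A1, -0.06 without A6, -0.12 without B14 and 0.95 without A12. When A1, A6 or B14 was left out the members' median turned to -0.17, -0.14 or -0.34, and it was 0.73 when A12 was left out.

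**Figure D5:**
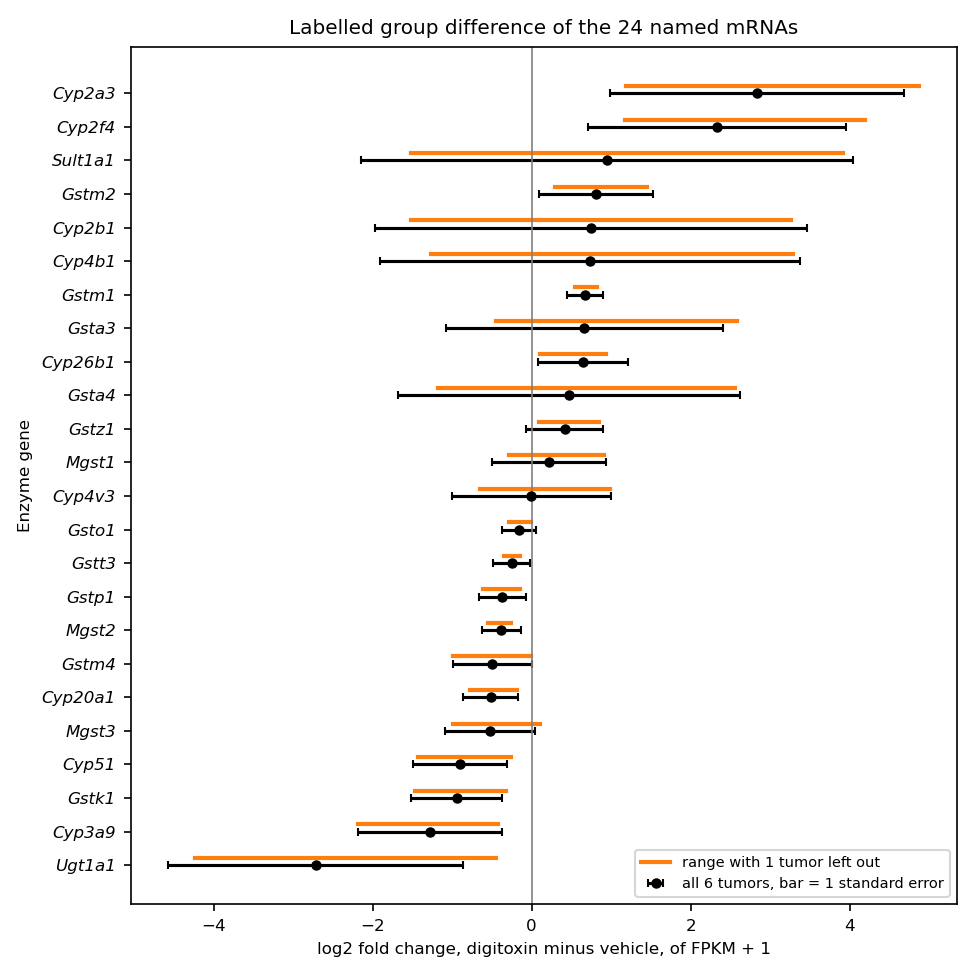
Log2 difference, digitoxin minus vehicle, of FPKM + 1 (horizontal axis) for the 24 named enzyme mRNAs (vertical axis). Black points are estimates from all 6 tumors with 1 standard error as bars, and orange lines span the estimates with 1 tumor left out, which cross 0 for genes such as Cyp2b1 (-1.52 to 3.27) but not for Gstm1 (0.55 to 0.82).

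The genes with wide differences had wide errors. The log2 difference was 2.84 for Cyp2a3 (standard error 1.85), 2.33 for Cyp2f4 (1.63), -2.72 for Ugt1a1 (1.86), -1.28 for Cyp3a9 (0.90), -0.95 for Gstk1 (0.57) and -0.90 for Cyp51 (0.59), with unadjusted p-values of 0.149 to 0.203. With 1 tumor left out, Cyp2a3 lay between 1.19 (without A1) and 4.88 (without A12), Cyp2f4 between 1.17 and 4.195 for the same tumors, and Ugt1a1 between -4.24 (without A12) and -0.45 (without A6). Without A6 and without A12, the bounds were reached for Cyp3a9 (-0.43 and -2.19), Gstk1 (-0.32 and -1.47) and Cyp51 (-0.25 and -1.44). The log2 ratio of the group means was 4.98 for Cyp2a3, 3.93 for Cyp2f4, -0.84 for Ugt1a1, -0.76 for Cyp3a9, -0.69 for Gstk1 and -0.63 for Cyp51. Sult1a1 (0.95, standard error 3.09) and Cyp2b1 (0.75, 2.72) had the widest errors of those named here, and their lowest values were in A12 and B14, 1 from each group. The study describes no pairing of rats, and A12 and B14 share a replicate number. With that number as a block, limma's unadjusted p was under 0.05 for 8 members (15.7%) and for 4.15% of all rows. These were Cyp2a3, Cyp2b1, Cyp2f4, Gstm1 and Gstm2, with higher estimates, and Cyp3a9, Cyp51 and Gstk1, with lower ones, and the smallest adjusted p over all rows was 0.638.

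Without A12 and B14, 34 of 51 members (66.7%) did not overlap between the labelled groups, 20 higher and 14 lower, where 57.3% of all rows did not overlap with 2 tumors a group. Unadjusted p was then under 0.05 for 13 members (25.5%) against 11.1% of all rows, and the smallest adjusted p among members was 0.391. Between A1 with A6 and B5 with B9, Cyp2a3 differed by 4.25 and Cyp2f4 by 3.50 on the log2 scale, Gsta3 by 1.62 and Sult1a1 by 1.45, and Ugt1a1 by -4.15, Cyp3a9 by -1.83 and Gstk1 by -1.43. Alveolar, club and ciliated marker sums were also higher in A1 and A6 than in B5 and B9, as were endothelial (575 and 1182 against 282 and 416 FPKM) and macrophage sums (358 and 393 against 259 and 251). Within these lists Lamp3, Slc34a2, Bpifa1, Bpifb1, Cdh5, Kdr, Tie1 and Csf1r overlapped between A1 with A6 and B5 with B9. The other markers of these lists were higher in A1 and A6. Division markers summed lower (178 and 21.7 against 251 and 264 FPKM), and each of them was lower. Of the adipocyte list, Fabp4 was lower (792 and 315 against 2020 and 930.4 FPKM), while Cidec overlapped (1.66 and 4.43 against 0.97 and 2.15). Fibroblast and erythroid sums overlapped. The part of any of these in the differences was not tested. When A12 alone was left out, unadjusted p was under 0.05 for 14 members (27.5%) against 19.7% of all rows, and the members' smallest adjusted p was 0.252. The groups then did not overlap for 31 members (60.8%) against 51% of all rows.

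Partner genes of these enzymes were described from lists by their counts, and none of them had an unadjusted or adjusted p under 0.05 in limma's test. Of 7 genes that carry electrons to P450s, 5 were higher and 2 lower by group means, with a median log2 difference of 0.25. Por, the reductase that serves microsomal P450s, was at 146, 136 and 79.4 FPKM in A1, A6 and A12 and at 81.2, 80.2 and 81.0 in B5, B9 and B14. Of 14 tested genes of glutathione synthesis and use, 8 were higher and 6 lower (median 0.11), and of 6 that supply UDP-glucuronic acid or PAPS, 1 was higher and 5 lower (-0.23). Of 12 tested regulators, 4 were higher and 8 lower (-0.29). Ahr, the aryl hydrocarbon receptor, was at 7.58, 0.451 and 14.7 FPKM in A1, A6 and A12 and 9.11, 25.9 and 19.9 in B5, B9 and B14, and Nfe2l2, which acts on antioxidant response elements, at 65.4 to 104 FPKM.

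Among 26 tested genes for other drug enzymes, 18 were higher and 8 lower (median 0.30), and A12 and B14 were lowest for 16 of them, among them Fmo2, a lung flavin monooxygenase, at 59.9, 69.2 and 0 FPKM in A1, A6 and A12 and 27.8, 28.5 and 0.0461 in B5, B9 and B14. Of 8 tested export pumps 1 was higher and 7 were lower (-0.54), and Abcg2, a drug exporter, was at 10.6, 1.03 and 35.0 FPKM in A1, A6 and A12 and 27.0, 26.1 and 34.3 in B5, B9 and B14. These genes were picked from the lists after their values were seen.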

How the data were processed

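FPKM per gene were deposited in 1 table, which the authors made from single-end reads (CASAVA, FastQC, TopHat2 with Bowtie2, Cufflinks). The submitters' notes name only hg19, a human build, so the build of the positions is unknown. Groups followed the labels. Rows averaging 1 FPKM or more across the tumors, 1 per symbol, were tested with limma 3.58.1 in R 4.3.3 (eBayes with trend, log2(FPKM + 1), two-sided, Benjamini-Hochberg). Each library is 1 rat, so p-values measure the spread between these tumors. The smallest exact permutation p for 3 against 3 would be 0.1. The method was tested on simulated data. The members and lists were chosen with earlier results of these data known. Named were members given in the rule or in the study's gene tables, the 20 most abundant tested members, the most abundant of each class, and members with an unadjusted p under 0.05 or with separate groups and a log2 difference of at least 1. The study describes no pairing of rats, and the replicate numbers come from the sample titles. Same-numbered tumors deviated together (r = 0.43, 0.61 and 0.87 over genes), and the replicate number was tried as a block. The other pairs A1 with B9 (0.65) and A6 with B5 (0.61) were as close, so these values show no pairing. The block is not a paired design. Alternatives were other pseudocounts, filters and scaling, summed repeats, and libraries left out. Promoters came from RefSeq tables (GRCr8), and motifs were searched on both strands. Some genes of the marker lists are not reported here.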

Additional observations from a re-analysis of the deposited data

How the results depend on the processing

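No adjusted p of a member passed the threshold under any alternative run, and among all rows of the table, 2 passed without A12 and B14 and 0 to 2 with 1 tumor left out (2 without B14). Members with an unadjusted p under 0.05 in limma's test numbered 1 of 51 in the analysis as reported (0.335% of all rows). With no filter there were 2 of 92, Gstm1 and Gsto2, against 130 of 14344 rows. There were 8 with the replicate block (4.15% of all rows) and 13 without A12 and B14 (11.1%). With 1 tumor left out there were 0 to 14 (14 without A12, against 19.7% of all rows). Members whose groups do not overlap numbered 1 of 35 with a minimum mean of 5 FPKM (328 of 8617 rows) and 1 of 51 with median-of-ratios scaling (490 of 10740 rows). They numbered 34 without A12 and B14 (where 57.3% of all rows did not overlap), and 2 to 31 with 1 tumor left out (31 without A12, where 51% of all rows did not overlap). The members' median log2 difference lay between -0.34 (without B14) and 0.73 (without A12). Of 24 named genes, 15 kept their direction throughout, and 333 of 359 alternative values did. Cyp4v3 reversed to 0.20 with median-of-ratios scaling, 0.35 without A12 and B14 and 0.23 by the ratio of means, and Gsto1 to 0.0466 with median-of-ratios scaling. With 1 tumor left out the difference spanned -0.65 to 0.99 for Cyp4v3, -1.52 to 3.27 for Cyp2b1, -1.27 to 3.29 for Cyp4b1, -0.44 to 2.58 for Gsta3, -1.18 to 2.56 for Gsta4, -0.29 to 0.91 for Mgst1, -0.996 to 0.10 for Mgst3 and -1.52 to 3.92 for Sult1a1. In these ranges the lowest values came without B14, except Gsta3 without A6 and Mgst3 without A12, and the highest without A12, except Mgst3 without A6. The depth is unknown, so no floor can be set for values listed at 0.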
